A study of Apostichopus japonicus with 9 samples.

Results

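The genes described here are the purine and pyrimidine metabolism genes of the *A. japonicus* body wall (AJBW). They were the genes whose KEGG annotation in the deposited table named the purine metabolism or the pyrimidine metabolism map and whose FPKM was above 0 in at least 2 of the 9 libraries. Genes also annotated to DNA replication, a repair pathway, carbon metabolism, biosynthesis of amino acids, or alanine, aspartate and glutamate metabolism were dropped. This left 173 of the 53665 genes of the table. A further 23 pathway genes were dropped and 5 were seen in fewer than 2 libraries. The 2 members just inside that limit reached 0.0787 and 0.117 FPKM in their highest library, and the 5 genes just outside reached 0.0191 to 0.768 FPKM in the single library that held them.

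FPKM (fragments per kilobase of exon, scaled to each library's mapped reads) was measured by RNA-Seq in 3 groups of 3 libraries each. CON was fresh body wall (0 h), and T_1h and T_3h were pieces incubated at 37 °C, for 1 h and 3 h. All pieces came from live sea cucumbers of 150 ± 20 g bought at a market, with viscera and head removed. The heated pieces were cut tissue on a plate, not living animals, and strain, sex and age are not given in the sources used here. Values for single libraries are given in the order of replicates 1, 2 and 3.

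Nucleotides are the building blocks of RNA and DNA, and ATP and GTP also carry energy and signals. Cells build them from small precursors (synthesis), recover bases and nucleosides and phosphorylate them (salvage), and take them apart to uric acid or beta-amino acids (breakdown). KEGG places the subunits of RNA polymerases, which consume the nucleoside triphosphates, and the cyclases and phosphodiesterases that make and remove cAMP and cGMP on the same maps. In post-mortem muscle the breakdown of ATP to inosine and hypoxanthine is a familiar marker of freshness, which makes these enzymes of interest in a tissue held warm after cutting. The members comprised 35 breakdown genes, 29 salvage genes, 19 synthesis genes, 43 RNA polymerase genes, 36 cyclic nucleotide genes and 11 others, across 86 KEGG entries. For 21 members the description named no enzyme and the role rests on the KEGG entry. For a further 6 the description named another protein than the entry did.

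The libraries differed as a whole. T_3h_2 had the lowest median FPKM among detected genes (0.501, against 0.771 to 1.25 in the other libraries) and the fewest genes at 1 FPKM or more (12877, against 17380 to 24915). In the paper's mapping summary, T_3h_1 and T_3h_2 had the largest shares of reads that mapped to more than 1 place (multimapped reads). T_3h_1 also had the smallest share of uniquely mapped reads, and the part of mapping in the results was not tested. T_1h_1 was left out of the fitted comparisons, as in the study, and its values are still printed. Libraries with the same replicate number deviated from their group means together, so each is also set beside its own number. The summed FPKM of the connective tissue markers was 13960 (CON_3) to 34246 (T_3h_2), against 26.1 to 43.5 for the gut markers and 6.09 to 22.1 for the gonad markers. The coelomocyte markers summed to 1112, 534 and 1260 FPKM in T_3h and to 809 to 1269 FPKM in T_1h, against 423 to 901 FPKM in CON, and the nerve markers to 29.9 FPKM in T_3h_2 against 66.1 to 116 FPKM in the other libraries. The nucleotide metabolism genes had their lowest sum in T_3h_2 and their highest in CON_3, and the part of these cell markers in the results was not tested. In bulk tissue, fewer cells of a type and less RNA per cell cannot be told apart.

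Nucleotide metabolism genes were mostly weakly expressed. Only 78 of the 173 had a mean of at least 1 FPKM over the 8 fitted libraries, 70 stayed below 1 FPKM in all 9 libraries, and 127 were detected in all 9. Together they summed to 417, 520 and 708 FPKM in CON, to 406, 400 and 546 FPKM in T_1h and to 336, 212 and 521 FPKM in T_3h. These sums were between 0.0615% (T_3h_2) and 0.201% (CON_3) of each library's total. In each of the 3 same-numbered pairs, T_3h held less than CON, while the groups overlapped.

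The comparison of T_3h with CON asks which of these genes differ after 3 h at 37 °C. In T_3h vs. CON, 8 of the 171 tested members passed the thresholds (unadjusted p up to 0.05, and a log2 fold change of 1 or more in size) with lower values in T_3h, which is 4.68% of them, and none passed with higher values. Over all 50973 tested genes, 3.67% passed lower and 0.473% passed higher, so the members' share was near that of all genes. The 8 were 2 breakdown enzymes, 1 kinase of the salvage group, 1 synthesis enzyme, 2 genes annotated as RNA polymerase subunits and 2 others. None had an adjusted p under 0.05 (limma, Benjamini-Hochberg over all tested genes), and the 8 lay at adjusted p = 0.68 to 0.80. Unadjusted p was under 0.05 in 13 members, and the share of all genes under that limit alone is not given here.

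In T_1h vs. CON, 1 member passed, with lower values in T_1h, against 0.473% of all genes passing lower and 0.398% passing higher. In T_3h vs. T_1h none of the members passed, against 0.645% of all genes passing lower and 0.0824% passing higher. By limma, 4 members had an unadjusted p under 0.05 in that comparison, again without a share of all genes beside it. A Ballgown-type test called 1 as higher (0.155% of all genes). With the replicate number as a block, limma called 1 as lower (0.834% of all genes), the thioredoxin reductase gene MSTRG.5528.

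By limma, the members' medians lay near those of all tested genes or below them. Their median log2 fold change, on the log2(FPKM + 1) scale used throughout, was -0.03 in T_1h vs. CON (-0.06 for all tested genes) and -0.24 in T_3h vs. CON (-0.17 for all tested genes). Among genes with a mean of at least 1 FPKM the T_3h vs. CON medians were -0.56 for the 78 members and -0.40 for all genes. After median-ratio scaling, which sets the libraries' typical expressed gene to a common level, these last medians were -0.23 for 75 members and -0.06 for all genes. In all, 134 of the 171 members had a negative fold change in T_3h vs. CON with FPKM as deposited and 103 after median-ratio scaling. In the Ballgown-type test, which fits a library covariate, 69 were negative. The members' median there was 0.05, against -0.003 for all tested genes, so the direction of the shift depended on the method. Without overlap between 3 libraries and 3, 19 members (11.1%) were lower in T_3h than in CON and 5 (2.92%) were higher, against 9% and 1.68% of all tested genes.

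**Figure D1:**
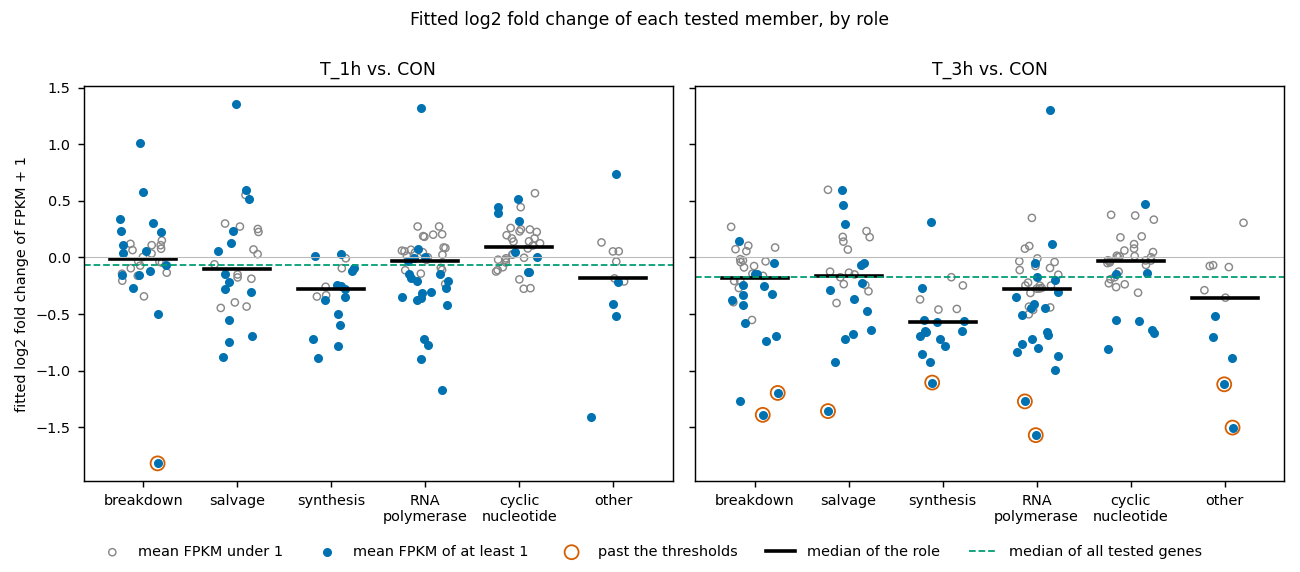
Fitted log2 fold change of FPKM + 1 (y axis) for each of the 171 tested members by role (x axis), in T_1h vs. CON (left) and T_3h vs. CON (right); filled points have a mean of at least 1 FPKM, black bars are role medians and the dashed line is the median of all tested genes. Over all tested members the synthesis genes have the lowest role median in T_3h vs. CON (-0.57), whereas over members with a mean of at least 1 FPKM the other genes do (-0.89), and the 8 circled members of that panel all lie below -1.

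Breakdown genes. The 35 breakdown genes, 34 of them tested, summed to 41.8, 73.4 and 68.4 FPKM in CON, to 49.7, 55.3 and 67.2 FPKM in T_1h and to 27.3, 25.8 and 63.1 FPKM in T_3h. In T_3h vs. CON 2 of them fell, against 3.67% of all genes passing lower, and 32 did not pass. The median log2 fold change was -0.18. After median-ratio scaling that median was 0.00, and 16 of 34 had a negative value.

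Soluble calcium-activated nucleotidase (MSTRG.7468), which hydrolyses nucleoside diphosphates such as UDP and GDP, was the single member that passed at both times. It measured 3.84, 4.73 and 4.31 FPKM in CON, 3.78, 0.454 and 0.536 FPKM in T_1h, and 0.557, 0.0408 and 4.03 FPKM in T_3h. The low libraries were thus T_1h_2, T_1h_3, T_3h_1 and T_3h_2, while T_3h_3 lay within the CON range and the unfitted T_1h_1 just below it. The fitted log2 fold change was -1.82 (SE 0.64, adjusted p = 1.0, limma) in T_1h vs. CON and -1.39 (SE 0.57, adjusted p = 0.80, limma) in T_3h vs. CON. With all 9 libraries the values were -1.26 and -1.39, and neither passed the limit on p.

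Dihydropyrimidinase opens the ring of dihydrouracil and dihydrothymine, the middle step of pyrimidine breakdown. The locus MSTRG.4040 measured 1.04, 0.593 and 2.41 FPKM in T_3h, against 3.68, 4.93 and 3.82 FPKM in CON. Every T_3h library lay below every CON library. It averaged 1.35 ± 0.95 FPKM in T_3h and 4.14 ± 0.68 FPKM in CON (SD, n = 3 each), with a log2 fold change of -1.20 (SE 0.40, adjusted p = 0.73, limma).

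The second dihydropyrimidinase locus, MSTRG.44370, is described as dihydropyrimidinase-like and was the more abundant one. It measured 1.20, 1.39 and 6.28 FPKM in T_3h, against 3.50, 10.6 and 9.21 FPKM in CON. The groups overlapped, but T_3h was the lower library in each of the 3 same-numbered pairs. Its log2 fold change of -1.27 did not pass without the block (SE 0.59, limma) and passed with it (SE 0.38, limma with the replicate block). The next enzyme of the path, beta-ureidopropionase (MSTRG.27054), ranged from 0.13 to 4.14 FPKM over the 9 libraries and did not pass.

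The most abundant breakdown gene was MSTRG.4776, annotated as purine nucleoside phosphorylase, which releases hypoxanthine and guanine from their nucleosides. It measured 5.15, 15.5 and 2.49 FPKM in CON, 12.2, 13.1 and 13.4 FPKM in T_1h, and 1.19, 7.32 and 8.84 FPKM in T_3h. All T_1h libraries lay between the CON values, the CON libraries spread over the widest range, and no comparison passed. A further phosphorylase locus (MSTRG.6014) measured 2.81 to 3.16 FPKM in CON and 0.925 to 3.60 FPKM in T_3h.

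Among the remaining breakdown genes, dUTPase (MSTRG.30788), which keeps uracil out of DNA, measured 4.15, 2.59 and 5.58 FPKM in T_3h, against 6.05, 3.66 and 5.09 FPKM in CON. Xanthine dehydrogenase/oxidase, which makes uric acid, had 7 loci that summed to 2.48, 1.71 and 4.34 FPKM in T_3h, against 1.20, 6.35 and 8.21 FPKM in CON. The 5 AMP deaminase loci, which turn AMP into IMP at the entry to ATP breakdown, summed to only 0.863, 0.324 and 0.960 FPKM in T_3h, against 0.628, 0.619 and 1.07 FPKM in CON. The 8 loci of 5'-nucleotidases, which remove the phosphate of nucleoside monophosphates, summed to 5.04, 2.73 and 4.65 FPKM in T_3h, against 6.20, 7.49 and 10.4 FPKM in CON. The 5'-nucleotidase sums did not overlap between the groups, although none of the loci passed. No breakdown gene passed with higher values in T_1h or T_3h.

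**Figure D2:**
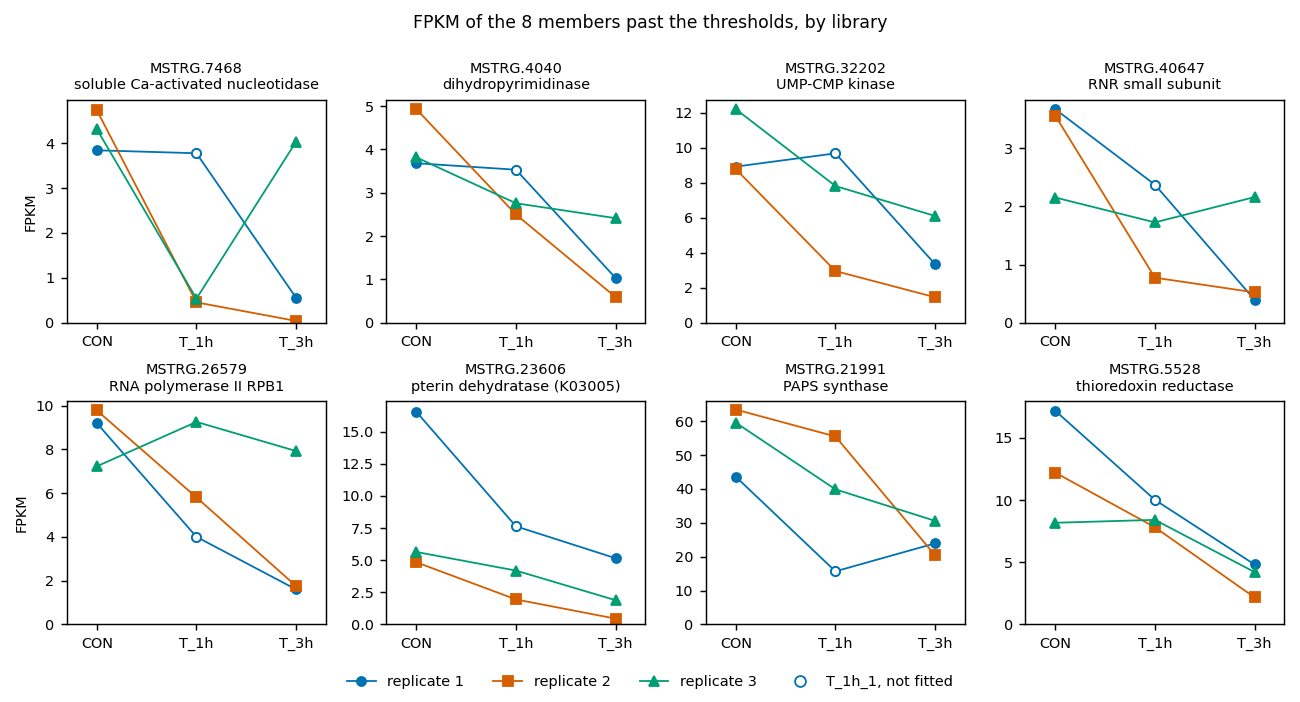
FPKM (y axis, from 0) in CON, T_1h and T_3h (x axis) of the 8 members that passed the thresholds in T_3h vs. CON; each symbol is 1 library, lines join libraries of the same replicate number, and the open circle is T_1h_1, which was not fitted. Replicate 2 falls to 0.0408 FPKM for MSTRG.7468 in T_3h, while T_3h_3 of MSTRG.7468, MSTRG.40647 and MSTRG.26579 stands at 4.03, 2.16 and 7.93 FPKM, near or above CON_3.

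Salvage and nucleotide kinase genes. The 29 genes of this role, 28 of them tested, summed to 121, 125 and 223 FPKM in CON, to 147, 118 and 176 FPKM in T_1h and to 131, 75.4 and 172 FPKM in T_3h. In T_3h vs. CON 1 fell, against 3.67% of all genes passing lower, and none passed with higher values. The median was -0.16, near that of all genes. After median-ratio scaling the median was -0.04, and none passed.

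UMP-CMP kinase (MSTRG.32202), which phosphorylates UMP and CMP for RNA synthesis, was the gene that fell. It measured 3.35, 1.46 and 6.10 FPKM in T_3h, against 8.93, 8.78 and 12.2 FPKM in CON. No T_3h library reached the lowest CON library. The means were 3.64 ± 2.34 FPKM in T_3h and 9.97 ± 1.94 FPKM in CON (SD, n = 3 each), and the log2 fold change was -1.36 (SE 0.50, adjusted p = 0.76, limma). The T_1h libraries measured 9.68, 2.96 and 7.82 FPKM and, except in replicate 1, lay between the T_3h and CON libraries of their own number.

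The most abundant member of all was MSTRG.31241, described only as an oncoprotein and annotated as nucleoside diphosphate kinase, the enzyme that moves the terminal phosphate of a nucleoside triphosphate to a nucleoside diphosphate. It measured 50.4, 72.4 and 135 FPKM in CON, 76.3, 77.5 and 113 FPKM in T_1h, and 80.4, 51.8 and 102 FPKM in T_3h. The 3 groups overlapped throughout, and this locus held 95.1% of the summed mean FPKM of the 4 nucleoside diphosphate kinase loci. MSTRG.9539, annotated as adenosine kinase, which returns adenosine to AMP, measured 27.6, 4.79 and 30.7 FPKM in T_3h, against 39.0, 14.7 and 36.4 FPKM in CON. Replicate 2 was the low library in each group, and T_3h was lower than CON in each same-numbered pair without passing.

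Of the 28 tested genes of this role, 19 had a negative fold change in T_3h vs. CON. The 2 adenylate kinase 6 loci summed to 2.87, 1.52 and 5.93 FPKM in T_3h, against 4.65, 7.95 and 8.37 FPKM in CON. These sums were lower in T_3h in each same-numbered pair, with overlap between the groups. Adenylate kinase 6 and the following 5 kinase loci, which are not typical of the role, were picked after their values were seen. None of them passed in the main fit. Adenylate kinase 8 (MSTRG.1304) measured 0.764, 0.929 and 0.438 FPKM in T_3h, against 0.124, 0.131 and 0.108 FPKM in CON, and T_1h measured 0.318, 0.677 and 0.612 FPKM. All heated libraries lay above all CON libraries, at low levels, and the log2 fold change of 0.60 in T_3h vs. CON stayed under the threshold of 1 (SE 0.25, adjusted p = 0.80, limma). With a pseudocount of 0.1 in place of 1, that log2 fold change was 1.82 and passed. Nucleoside diphosphate kinase 7 (MSTRG.14640) measured 1.58, 3.44 and 1.67 FPKM in T_3h and 1.78, 1.97 and 1.97 FPKM in T_1h, against 1.36, 0.651 and 1.27 FPKM in CON. It did not overlap with CON at either time and did not pass. Adenylate kinase 7 (MSTRG.47222) overlapped with CON, at 0.989, 1.66 and 1.69 FPKM in T_3h against 0.0459, 1.82 and 0.845 FPKM in CON, and T_3h_2 was lower than CON_2. Nucleoside diphosphate kinase homolog 5 (MSTRG.18840) overlapped too, at 0.225, 0.239 and 1.76 FPKM in T_3h against 0, 0.202 and 0.869 FPKM in CON. Adenylate kinase 9 (MSTRG.13887) overlapped as well, at 0.429, 0.347 and 0.522 FPKM in T_3h against 0, 0.585 and 0.267 FPKM in CON, and T_3h_2 was again lower than CON_2. The other 2 adenylate kinase 9 loci, AJAP27271 and MSTRG.13890, were at 0 to 0.533 FPKM over the 9 libraries.

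The summed FPKM of 63 ciliated cell markers (axonemal dynein heavy chains, radial spoke and cilia- and flagella-associated proteins) was 15.8 to 30.3 in T_3h and 12.6 to 32.0 in T_1h, against 4.73 to 14.5 in CON. It did not overlap between T_3h and CON. All 63 were above 0 in at least 1 library, and 27 were above 0 in all 9. Its part in the values of these kinases was not tested. In all, 2 of 28 salvage genes (7.14%) were higher in T_3h without overlap and 3 (10.7%) were lower, against 1.68% and 9% of all genes.

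Synthesis genes. The 19 synthesis genes were all tested, and over all tested members they had the lowest median fold change of the 6 roles in T_3h vs. CON. They summed to 39.5, 52.2 and 76.7 FPKM in CON, to 42.6, 31.5 and 46.5 FPKM in T_1h and to 29.8, 16.1 and 48.9 FPKM in T_3h. The median log2 fold change in T_3h vs. CON was -0.57, and 18 of 19 had a negative value. Of the 19, 1 passed, with lower values, against 3.67% of all genes passing lower. Among genes with a mean of at least 1 FPKM the remaining genes described last were lower, with a median of -0.89 over 5 genes against -0.65 over 14 synthesis genes, and likewise after median-ratio scaling, with -0.59 against -0.36. Between same-numbered libraries the median log2 difference, T_3h minus CON, was -0.19, -1.24 and -0.45 for replicates 1, 2 and 3 over the 14 synthesis genes with a mean of at least 1 FPKM, against -0.07, -0.76 and -0.31 over all genes at that level. After median-ratio scaling the median was -0.26, 16 of 19 were negative and none passed. In the Ballgown-type test it was -0.04, and 10 of 19 were negative. In T_1h vs. CON the median was -0.28, 17 of 19 were negative and none passed.

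Ribonucleotide reductase makes deoxyribonucleotides from ribonucleotides. Of its small subunit (M2) loci, MSTRG.40647 fell, at 0.396, 0.522 and 2.16 FPKM in T_3h, against 3.67, 3.56 and 2.15 FPKM in CON. T_3h_1 and T_3h_2 were low, and T_3h_3 was level with CON_3. The means were 1.03 ± 0.98 FPKM in T_3h and 3.13 ± 0.84 FPKM in CON (SD, n = 3 each), and the log2 fold change was -1.11 (SE 0.45, adjusted p = 0.80, limma). The other M2 locus, MSTRG.46677, was the most abundant synthesis gene, at 7.72, 3.59 and 5.47 FPKM in T_3h against 7.50, 9.41 and 10.2 FPKM in CON. It did not pass, and both loci carry the same description, so reads may have been split between them. The large subunit gene MSTRG.21039 measured 1.96, 0.678 and 0.957 FPKM in T_3h, against 2.42, 2.83 and 1.33 FPKM in CON.

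In purine synthesis, GMP synthase (MSTRG.45241) makes GMP from XMP. It measured 0.994, 0.387 and 11.0 FPKM in T_3h, against 1.24, 2.57 and 15.3 FPKM in CON, so replicate 3 stood far above the others in both groups, as it did in T_1h at 9.85 FPKM. PAICS (MSTRG.5241), which catalyses a middle pair of steps towards IMP, measured 2.16, 0.802 and 4.21 FPKM in T_3h, against 2.26, 4.36 and 6.68 FPKM in CON. T_3h was lower in each pair for both genes, and neither passed. IMP dehydrogenase, the first step from IMP towards GMP, held the exception of the role: MSTRG.15002 measured 2.73, 2.68 and 3.17 FPKM in T_3h, against 2.34, 0.826 and 3.90 FPKM in CON.

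In pyrimidine synthesis, dihydroorotate dehydrogenase (MSTRG.5460) measured 1.43, 0.940 and 2.88 FPKM in T_3h, against 4.56, 4.28 and 3.27 FPKM in CON. All T_3h libraries lay below all CON libraries, and the log2 fold change of -0.93 missed the threshold of 1 (SE 0.40, limma, unadjusted p under the limit). UMP synthase (MSTRG.34918) measured 0.616, 0.333 and 1.04 FPKM in T_3h, against 0.576, 0.880 and 2.82 FPKM in CON, with overlap. These last 2 genes were picked after their values were seen.

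**Figure D3:**
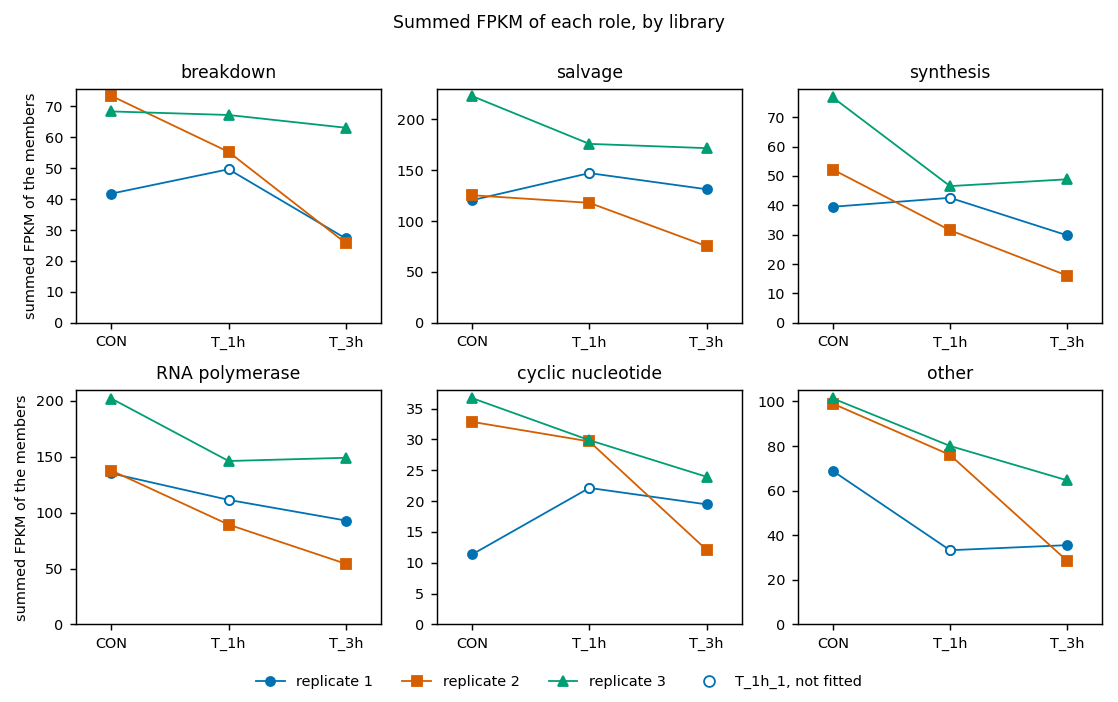
Summed FPKM of the members of each role (y axis, from 0) in CON, T_1h and T_3h (x axis); each symbol is 1 library, lines join libraries of the same replicate number, and the open circle is T_1h_1. Replicate 2 is lower in T_3h than in CON in every role, for example 16.1 against 52.2 FPKM in synthesis, while replicate 1 of salvage (131 against 121 FPKM) and of the cyclic nucleotide genes (19.5 against 11.4 FPKM) is higher.

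RNA polymerase genes. The 43 RNA polymerase genes covered 20 KEGG subunit entries, and all were tested. They summed to 135, 138 and 202 FPKM in CON, to 111, 89.3 and 146 FPKM in T_1h and to 92.9, 54.3 and 149 FPKM in T_3h. In T_3h vs. CON 2 fell, against 3.67% of all genes passing lower. The median was -0.28 and 38 of 43 were negative. After median-ratio scaling the median was -0.09 and 29 of 43 were negative. In the Ballgown-type test it was 0.10, and 14 of 43 were negative.

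RPB1 (MSTRG.26579), the largest subunit and catalytic core of RNA polymerase II, measured 1.60, 1.76 and 7.93 FPKM in T_3h, against 9.20, 9.78 and 7.23 FPKM in CON. T_3h_1 and T_3h_2 were low and T_3h_3 lay within the CON range. The means were 3.76 ± 3.61 FPKM in T_3h and 8.74 ± 1.34 FPKM in CON (SD, n = 3 each), and the log2 fold change was -1.27 (SE 0.53, adjusted p = 0.80, limma). RPB2 (MSTRG.19536), which forms the active centre with RPB1, measured 1.87, 0.81 and 6.08 FPKM in T_3h, against 3.38, 4.33 and 7.34 FPKM in CON, and did not pass.

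The 3 most abundant genes were RPABC2 (MSTRG.27841), shared by RNA polymerases I, II and III, and the RPB11 loci MSTRG.40277 and MSTRG.943. RPABC2 measured 27.6, 10.3 and 23.1 FPKM in T_3h, against 39.6, 30.5 and 36.5 FPKM in CON. It did not overlap between the groups and did not pass. MSTRG.40277 measured 9.25, 3.91 and 21.8 FPKM in T_3h, against 17.3, 9.25 and 28.9 FPKM in CON, lower in each pair. MSTRG.943 measured 6.27, 7.91 and 12.6 FPKM in T_3h, against 6.26, 17.9 and 14.1 FPKM in CON. The other genes averaged 0.156 to 9.85 FPKM.

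RPC2, the second largest subunit of RNA polymerase III, was annotated at 16 loci with means of 0.156 to 1.24 FPKM. Several of the loci are described as partial or have neighbouring gene numbers, so their reads may be split among near-identical copies, and each locus is uncertain. Summed over the 16, RPC2 measured 4.29, 2.65 and 14.1 FPKM in T_3h, against 2.38, 13.5 and 16.9 FPKM in CON, with overlap.

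The other gene that fell, MSTRG.23606, carries the RNA polymerase entry K03005 but is described as a pterin-4-alpha-carbinolamine dehydratase, an enzyme that regenerates the tetrahydrobiopterin cofactor. It measured 5.15, 0.455 and 1.89 FPKM in T_3h, against 16.5, 4.84 and 5.64 FPKM in CON, lower in each pair although T_3h_1 overlapped with CON. The log2 fold change was -1.57 (SE 0.64, adjusted p = 0.80, limma). The other K03005 locus, MSTRG.47303, has a like description and measured 3.72, 1.74 and 2.12 FPKM in T_3h, against 6.89, 6.85 and 4.13 FPKM in CON. It did not overlap, and its log2 fold change of -0.99 missed the threshold of 1 (SE 0.38, limma, unadjusted p under the limit).

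MSTRG.16000, named after its values were seen, is annotated as the RNA polymerase III subunit RPC1 but described as the parkin coregulated gene protein, which in other animals is part of the axoneme of cilia. It measured 4.17, 7.10 and 6.58 FPKM in T_3h, against 0.175, 2.21 and 4.62 FPKM in CON, and T_3h was the higher library in each of the 3 pairs. The log2 fold change of 1.302 did not pass without the block (SE 0.61, limma) and passed with the replicate block (SE 0.45) and after median-ratio scaling (1.75). Without CON_1, its lowest library, the log2 fold change was 0.68 and did not pass. It was the single member that passed with higher values in T_3h in these fits, where 0.722% and 1.12% of all genes did. The ciliated marker sums given above were also higher in T_3h than in CON in each pair. Within CON, both the gene and the marker sum were lowest in CON_1 and highest in CON_3. Of all 9 libraries, T_1h_2 was the highest in both (9.10 FPKM, and a marker sum of 32.0 FPKM). Within T_3h, T_3h_2 was the highest library of MSTRG.16000 and held the lowest marker sum (15.8 FPKM). The part of these markers was not tested.

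Cyclic nucleotide genes. Adenylate and guanylate cyclases make cAMP and cGMP, and phosphodiesterases hydrolyse them. The 36 genes of this role, all tested, were the lowest as a group, with a median mean of 0.269 FPKM and 8 genes at 1 FPKM or more. They summed to 11.4, 32.8 and 36.7 FPKM in CON, to 22.1, 29.7 and 29.9 FPKM in T_1h and to 19.5, 12.1 and 23.9 FPKM in T_3h. None passed in T_3h vs. CON, none had an unadjusted p under 0.05 there by limma, and the Ballgown-type test also called none. The median was -0.03, and 21 of 36 were negative.

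The most abundant was MSTRG.18927, a membrane guanylyl cyclase, at 3.00, 2.48 and 4.76 FPKM in T_3h against 1.96, 10.0 and 8.92 FPKM in CON. MSTRG.39760 is described as the speract receptor, a guanylate cyclase known from sea urchin sperm, where it binds an egg peptide. It measured 2.53, 1.17 and 3.30 FPKM in T_3h, against 1.06, 3.49 and 3.82 FPKM in CON. Soluble guanylate cyclase 88E (MSTRG.18638) measured 2.24, 1.27 and 1.62 FPKM in T_3h, against 0.618, 2.27 and 3.82 FPKM in CON. CON_1 was the lowest CON library in all 3 genes, and each gene was higher in T_3h than in CON for replicate 1 and lower for replicates 2 and 3.

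Adenylate cyclase type 2 (MSTRG.36793) did not overlap, at 0.662, 0.864 and 0.861 FPKM in T_3h against 1.18, 1.97 and 3.76 FPKM in CON, and did not pass. Soluble guanylate cyclase subunit loci MSTRG.44225 and MSTRG.22661 were higher in T_3h without overlap, at 0.127 to 0.407 and 0.362 to 0.647 FPKM, against 0.0553 to 0.0829 and 0.0408 to 0.321 FPKM in CON. Like many of the role, they lay far below 1 FPKM. These 3 genes were picked after their values were seen.

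Other genes. The remaining 11 genes summed to 68.8, 99.0 and 101 FPKM in CON, to 33.3, 76.0 and 80.1 FPKM in T_1h and to 35.6, 28.5 and 64.6 FPKM in T_3h, and the T_3h sums lay below all the CON sums. In T_3h vs. CON 2 of them fell, against 3.67% of all genes passing lower, and 10 of 11 were negative. Of the 11, 3 were lower and 1 was higher in T_3h without overlap, against 9% and 1.68% of all genes.

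MSTRG.5528, described only as a predicted protein and annotated as thioredoxin reductase, had the lowest adjusted p of the members. Thioredoxin reductase passes electrons from NADPH to thioredoxin, which in turn reduces ribonucleotide reductase and other enzymes. It measured 4.83, 2.18 and 4.22 FPKM in T_3h, against 17.2, 12.2 and 8.18 FPKM in CON, with no overlap. It averaged 3.74 ± 1.39 FPKM in T_3h and 12.5 ± 4.51 FPKM in CON (SD, n = 3 each), with a log2 fold change of -1.50 (SE 0.41, adjusted p = 0.68, limma). T_1h measured 10.0, 7.82 and 8.41 FPKM, and every T_3h library lay below every T_1h library. The log2 fold change in T_3h vs. T_1h was -0.99 without the block (SE 0.46, limma) and -1.20 with it (SE 0.37, limma with the replicate block). The cytoplasmic thioredoxin reductase 1 locus MSTRG.12349 varied widely, at 2.41, 0.231 and 6.63 FPKM in T_3h against 1.33, 8.97 and 7.80 FPKM in CON.

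PAPS synthase (MSTRG.21991) makes the sulfate donor used to sulfate the polysaccharides and proteins of connective tissue. It was the most abundant gene of this role, at 23.9, 20.4 and 30.6 FPKM in T_3h against 43.6, 63.4 and 59.5 FPKM in CON. No T_3h library reached the lowest CON library. It averaged 24.98 ± 5.16 FPKM in T_3h and 55.5 ± 10.5 FPKM in CON (SD, n = 3 each), with a log2 fold change of -1.12 (SE 0.35, adjusted p = 0.70, limma). T_1h measured 15.7, 55.5 and 39.9 FPKM, and its lowest value was that of the unfitted T_1h_1.

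MSTRG.16832 carries the entry of ADP-ribose pyrophosphatase and is described as transient receptor potential cation channel subfamily M member 2 (TRPM2). It measured 2.27, 4.05 and 19.5 FPKM in T_3h, against 3.15, 10.0 and 20.7 FPKM in CON, and replicate 3 was the highest library in each group. The urease locus AJAP27253 was higher in T_3h without overlap, at 0.326, 0.396 and 0.220 FPKM against 0.0938, 0 and 0.0912 FPKM in CON, far below the fold threshold on this scale (0.31).

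The 8 calls depended on the libraries and on the scaling. Without T_3h_2, 1 member passed in T_3h vs. CON, and it was lower, as were 1.92% of all genes. Without T_3h_3, 14 of 171 passed, all lower, and 6.66% of all genes passed in that direction. The one that passed in each of the 8 fits that left out 1 library was MSTRG.5528. PAPS synthase (MSTRG.21991) was lost without CON_2 (log2 fold change -1.02) and without T_3h_2 (-0.99). Dihydropyrimidinase (MSTRG.4040) was lost without CON_2 (-1.09), T_3h_1 (-1.13) and T_3h_2 (-0.96), and UMP-CMP kinase (MSTRG.32202) without CON_3 (-1.22), T_3h_1 (-1.38) and T_3h_2 (-0.97). MSTRG.23606 was lost without CON_1 (-1.07), T_3h_2 (-1.06) and T_3h_3 (-1.55). The M2 locus MSTRG.40647 was lost without CON_1 (-1.01), CON_2 (-1.02), T_1h_3 (-1.11), T_3h_1 (-0.89) and T_3h_2 (-0.95). In T_3h vs. CON, MSTRG.7468 and RPB1 (MSTRG.26579) passed in the fit without T_3h_3 and in none of the other 7, where their values lay at -0.92 to -1.45 and at -0.96 to -1.39. In T_1h vs. CON, MSTRG.7468 was lost without T_1h_2 (-1.78) and T_1h_3 (-1.86). Lost calls beyond the fold threshold had an unadjusted p above the limit.

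After median-ratio scaling, 1 of the 8 still passed lower in T_3h vs. CON, MSTRG.5528 (-1.08), against 1.68% of all genes passing lower. The other 7 kept a negative log2 fold change, between -0.61 for PAPS synthase and -1.25 for MSTRG.23606. Upper-quartile scaling also left 1 lower, against 1.5% of all genes. With the replicate block 9 members passed lower, the 8 and MSTRG.44370, against 5.5% of all genes. The Ballgown-type test called none of the members in T_3h vs. CON, against 1.55% of all genes.

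**Figure D4:**
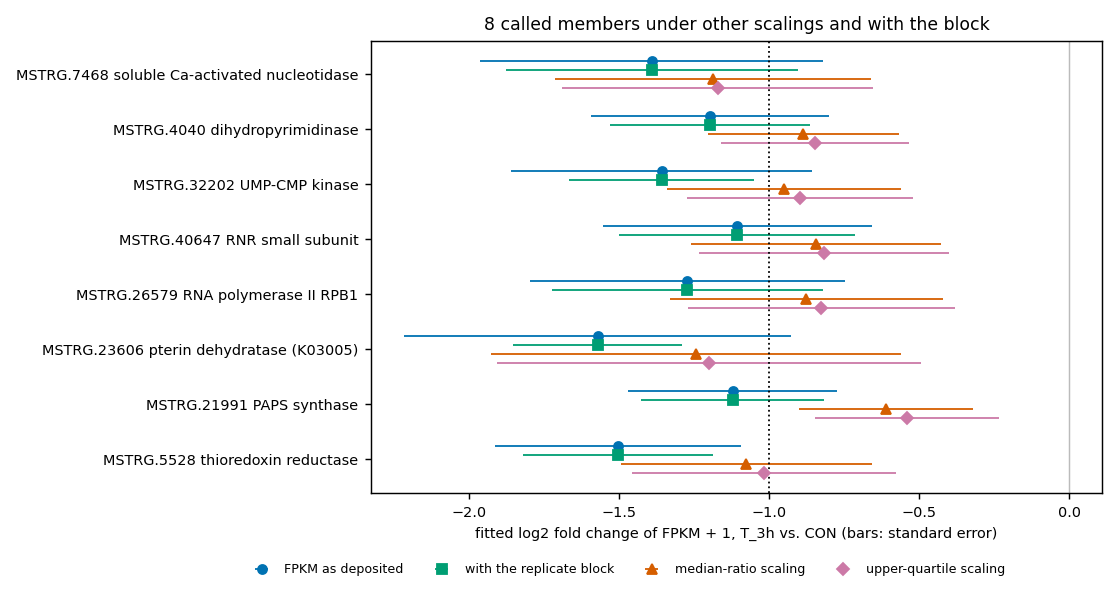
Fitted log2 fold change of FPKM + 1 in T_3h vs. CON (x axis, bars are 1 standard error) of the 8 members that passed, with FPKM as deposited, with the replicate block, and after 2 other scalings of the libraries; the dotted line is the threshold of -1. Both scalings move every gene towards 0, and with median-ratio scaling MSTRG.5528 (-1.08), MSTRG.7468 (-1.19) and MSTRG.23606 (-1.25) stay beyond the threshold, of which MSTRG.5528 also has p under the limit.

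Genes next to the pathway were counted by the same rule. Of the 23 pathway genes that were dropped from the members, 2 fell in T_3h vs. CON, against 3.67% of all genes passing lower. Both are described as adenylosuccinate synthetase, which acts between IMP and AMP. MSTRG.4725 measured 1.98, 1.05 and 4.47 FPKM in T_3h, against 6.27, 9.04 and 6.18 FPKM in CON, and MSTRG.41374 measured 2.05, 1.10 and 3.42 FPKM in T_3h, against 4.85, 7.57 and 5.72 FPKM in CON. Neither overlapped between the groups. Of 7 nucleoside transporter genes (solute carrier families 28 and 29), 1 fell, against the same 3.67% of all genes, the concentrative transporter SLC28A3 (MSTRG.17758), at 0.477, 0.377 and 0.749 FPKM in T_3h against 3.39, 7.996 and 1.40 FPKM in CON.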

How the data were processed

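The authors aligned RNA-Seq reads of 9 AJBW libraries to the *A. japonicus* genome with HISAT, built a merged transcript set with StringTie, and computed expression with StringTie and Ballgown. They deposited 1 FPKM value per gene and library, beside descriptions and KEGG entries. The submitters' processing notes list HISAT2 2.0, StringTie 1.3.0, Bowtie 0.12.2 and the build mm8, and the role of the last 2 is not given in the sources used here. The deposited FPKM values are scaled by length and by mapped reads. The table gives no counts, so the depth behind each value is unknown, no counting interval was computed, and precision rests on 3 libraries per group, or 2 for T_1h in the fits.

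Here FPKM was fitted as log2(FPKM + 1) with limma 3.58.1 in R 4.3.3, in 1 model of the 3 groups with a trended prior, over the 50973 genes above 0 in at least 2 of 8 libraries, without T_1h_1. The pseudocount of 1 understates the fold changes of weakly expressed genes. Tests were two-sided and adjusted by Benjamini-Hochberg over all tested genes. With 3 libraries against 3 an exact permutation test cannot give a p under 0.1. The labels call the libraries biological replicates. Same-numbered libraries deviated together (9 pairs, r = 0.595 to 0.722, against -0.438 to -0.118 for 18 pairs of different numbers), and the sources do not say that they share an animal, so the numbers were taken as pairs from the data and a block was fitted as an alternative. Median-ratio and upper-quartile scaling, other filters, pseudocounts and fits, a Ballgown-type test (an unmoderated comparison of nested models with a library covariate) and leaving out each of the 8 libraries were the other alternatives. The fit was also run on simulated data with independent noise in each library. Those data lacked the shared deviations of same-numbered libraries, so they cannot show how the fit handles them.

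Roles were set from the descriptions and KEGG entries. The text names every member past the thresholds and the 3 most abundant of each role, and others were picked after their values were seen. The members and lists were chosen with earlier results of these data known. None of the members matched the RefSeq gene table, so no sequences or positions are shown. Python 3.11.15, pandas 2.3.3, numpy 2.4.6 and matplotlib 3.10.9 were used for tables and figures.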

Additional observations from a re-analysis of the deposited data

How the results depend on the processing

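The count of members past the thresholds was 8 in T_3h vs. CON with FPKM as deposited. It became 2 with median-ratio scaling and 2 with upper-quartile scaling (1 higher and 1 lower in each), 5 in a fit of the groups compared, and 0 in the Ballgown-type test, where 2.81%, 2.75%, 3.69% and 1.55% of all genes passed. With a pseudocount of 0.1 it was 12 (11 lower and 1 higher), where 6.6% of all genes passed. In T_1h vs. CON the count of 1 became 0 with all 9 libraries (0.531% of all genes). It became 2 with a pseudocount of 0.1 (1.51%), with median-ratio scaling (0.802%) and with upper-quartile scaling (0.808%). In T_3h vs. T_1h the count of 0 became 3 with a pseudocount of 0.1, where 1.69% of all genes passed. It became 1 in the Ballgown-type test (0.343%) and with all 9 libraries (0.657%). With the replicate block the counts were 1 in T_1h vs. CON, 10 in T_3h vs. CON (9 lower) and 1 in T_3h vs. T_1h. Of all genes, 1.55%, 6.22% and 0.971% passed in these. The replicate block with all 9 libraries gave 2, 9 and 1, against 0.96%, 6.24% and 1.34% of all genes. The replicate block with median-ratio scaling gave 1, 3 and 1, against 1.01%, 3.85% and 0.816%. Beyond the calls given in the report, the block on 8 libraries changed no other call. Leaving out 1 CON or T_3h library gave 1 or 2 members in T_1h vs. CON, where 0.74% to 1.48% of all genes passed. Counts for T_1h vs. CON from fits that kept 1 T_1h library are left out. In T_3h vs. CON, leaving out 1 library gave 1 (without T_3h_2) to 14 (without T_3h_3), where 2.43% and 7.28% of all genes passed. In T_3h vs. T_1h it gave 0 to 6 (without T_3h_3, where 3.1% of all genes passed). Where an arm kept 1 library, that library was assumed to vary like the other groups. No called member changed sign in any of these fits. The causes of these differences were not tested. The depth of single genes is unknown, and the 70 members below 1 FPKM in all libraries cannot reach the fold threshold on the log2(FPKM + 1) scale.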
